A study of Homo sapiens with 7 samples.

Results

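The genes described are the transcriptional coactivators YAP1 and WWTR1 (the gene for TAZ), the TEAD transcription factors through which they act, and 4 of their best-known targets. Members were matched by gene symbol, as YAP1, WWTR1, TEAD1, TEAD2, TEAD3, TEAD4, CCN1, CCN2, AMOTL2 and ANKRD1. The list was proposed with earlier results of these data known. Of these 10 genes, 8 were found among the 21305 genes measured, and TEAD2 and ANKRD1 were not analysed here. All 8 passed the filter on low values, a mean normalized count of at least 10 over the 7 libraries.

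The Hippo pathway is a kinase cascade in which the MST kinases activate the LATS kinases, which phosphorylate YAP and TAZ and keep them in the cytoplasm. Unphosphorylated YAP and TAZ enter the nucleus, where they bind TEAD factors on DNA and switch on targets such as CCN1 (CYR61), CCN2 (CTGF), ANKRD1 and AMOTL2. In melanoma, YAP, TAZ and TEAD activity is known to go with the invasive, less differentiated cell state. The control of the pathway is largely through the location of the proteins, which RNA levels do not show.

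RNA was sequenced from 501Mel, a human melanoma cell line, to ask what follows when the long non-coding RNA GRASLND is lowered. Every library came from cells that carried a hairpin on a Tet-pLKO-puro lentivirus, had been selected with puromycin as a pool of transduced cells, and were given doxycycline to switch the hairpin on. The control hairpin was shlacZ (3 libraries), and the hairpins against GRASLND were sh4 (2 libraries) and sh8 (2 libraries). All controls therefore also carried a hairpin and received doxycycline, and the labels do not say whether libraries of a group came from separate cultures, so p-values measure only the spread between these libraries.

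The libraries held 13337317 to 22855232 reads in genes. The first shlacZ library stood apart from the other shlacZ libraries, at a chi-square averaged over genes of 28.5 and 27.8, against 8.6 between those. The value was 19.0 between the sh4 libraries and 16.2 between the sh8 libraries. Calls that rest on the first shlacZ library are given with and without it. GRASLND had 309, 329.9 and 289.7 normalized counts in the shlacZ libraries, 175 and 131 with sh4, and 227 and 163 with sh8, so that every knockdown library was below every control library. It was lower with both hairpins together (log2 fold change -0.85, adjusted p = 0.0402) and with sh4 (-1.02, adjusted p = 0.00662), and did not pass with sh8 (-0.68, adjusted p = 0.110). The call for both hairpins was lost when any library but the first of sh8 was left out (adjusted p 0.0171 to 0.182), and that for sh4 when the second sh4 library was left out (0.0772). The 7 melanocytic markers examined were all present, and their summed normalized counts were 135575 to 146343 with shlacZ, 51868 to 59737 with sh4 and 101544 to 104484 with sh8. With sh4, 6 of the 7 were lower and passed the test, where 22.5% of all genes were called. With sh8, 0 of 7 passed (2.92% of all genes), though 5 were lower at an unadjusted p under 0.05 by limma. With both hairpins together, 1 of 7 passed (4.61%). TYR went the other way, at a log2 fold change of 0.15 with sh4 and 0.22 with sh8, and was not called. The part of this shift in the results on YAP, TAZ and TEAD genes was not tested. In a bulk sample, fewer cells of a type and less RNA per cell cannot be told apart. Of the listed markers of other cell types, COL1A1 (1 of 6 for fibroblasts, 5.2 to 16.4 normalized counts), CD68 (1 of 4 for leukocytes, 441 to 675), KRT10 (1 of 4 for keratinocytes, 133 to 206) and 0 of 4 for endothelial cells were analysed here. None of these 3 genes passed the test with sh4 (adjusted p 0.87, 0.585 and 0.536).

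TEAD factors bind a short DNA element read as GGAATG on one strand and CATTCC on the other. The 250 bases before the transcription start are shown for the members in which either word occurs, the targets CCN2 and AMOTL2 and the coactivator YAP1. A link between the words and the fold changes was not tested. RefSeq sequences on GRCh38.p14 were matched for 5 of the 8 members (CCN2, AMOTL2, YAP1, TEAD3 and WWTR1). Each line reads 5′ to 3′ on the strand of the gene, and capitals mark the words found on either strand, none of which overlapped another.
CCN2 (minus strand, chr6:131951373-131951622): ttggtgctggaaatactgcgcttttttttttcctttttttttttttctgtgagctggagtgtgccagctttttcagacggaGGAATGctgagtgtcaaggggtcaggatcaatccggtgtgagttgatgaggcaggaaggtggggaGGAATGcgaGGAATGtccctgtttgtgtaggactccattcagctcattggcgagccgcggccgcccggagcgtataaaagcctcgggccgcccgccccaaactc
AMOTL2 (minus strand, chr3:134374448-134374697): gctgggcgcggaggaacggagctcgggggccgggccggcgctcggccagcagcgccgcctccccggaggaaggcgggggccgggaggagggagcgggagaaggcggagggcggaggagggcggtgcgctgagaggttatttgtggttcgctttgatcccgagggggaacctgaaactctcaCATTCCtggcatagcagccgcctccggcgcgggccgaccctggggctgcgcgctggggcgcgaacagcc
YAP1 (plus strand, chr11:102110197-102110446): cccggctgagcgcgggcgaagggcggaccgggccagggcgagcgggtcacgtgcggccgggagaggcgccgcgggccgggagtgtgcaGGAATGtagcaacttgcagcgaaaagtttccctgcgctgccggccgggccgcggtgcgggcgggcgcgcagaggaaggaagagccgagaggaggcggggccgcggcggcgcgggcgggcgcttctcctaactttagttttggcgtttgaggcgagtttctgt

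The CCN2 window held 3 matches, beginning 169, 104 and 95 bases before the start. The AMOTL2 window held 1 match at 69 bases, and the window before a second AMOTL2 start (chr3:134375418-134375667) held 0. The YAP1 window held 1 match at 162 bases, and the windows of TEAD3 and WWTR1 held 0. Among the 35116 RefSeq promoters of the same length, 4175 (11.9%) held at least 1 match and 29 (0.0826%) held 3 or more. A match of these letters is a description of the window and not a measured binding site.

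Among the members, WWTR1 and YAP1 rose and TEAD4 fell with sh4, and CCN2 rose with sh8, while TEAD1, TEAD3, CCN1 and AMOTL2 were not called at the settings used here. With both hairpins together against shlacZ, 1 of 8 members was called (WWTR1), where 4.61% of the 15420 genes tested were called. With sh4, 3 of 8 were called (YAP1 and WWTR1 higher, TEAD4 lower), beside a background of 22.5%. With sh8, 1 of 8 was called (CCN2), beside 2.92% of all genes. At the stricter rule of the study, which also asks for an absolute log2 fold change over 1, 0 of 8 members were called by limma with both hairpins together, against 1.99% of all genes, whereas 3 members had an unadjusted p under 0.05 there. The median log2 fold change of the 8 members was 0.028, 0.143 and 0.162 for both hairpins, sh4 and sh8, and that of all genes tested was -0.006, -0.008 and -0.010. Knockdown and control libraries did not overlap for WWTR1 and CCN2, that is 2 of 8 members, where 21.2% of all genes had no overlap. The 3 comparisons share the shlacZ libraries. Fold changes are on the log2(normalized count + 1) scale, which understates the change of genes with few counts, and adjusted p-values are from limma over all genes tested.

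**Figure D1:**
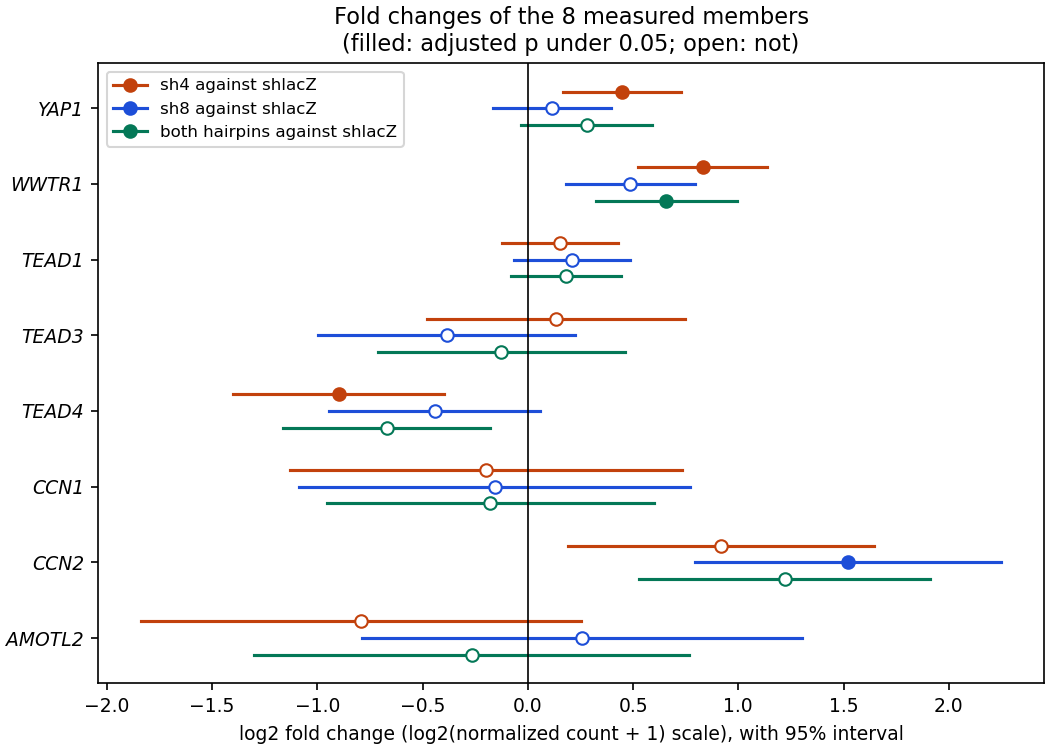
Log2 fold change (x axis, log2(normalized count + 1) scale) of each measured member (y axis) for sh4, sh8 and both hairpins together against shlacZ, with 95% intervals and filled points where adjusted p was under 0.05. The filled points are YAP1, WWTR1 and TEAD4 for sh4, CCN2 for sh8 and WWTR1 for both hairpins, and the intervals of CCN1 and AMOTL2 are the widest.

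WWTR1 (ENSG00000018408, hg38 chromosome 3, 149517235 to 149736714, minus strand), which encodes TAZ, had 4892, 5846 and 6081 normalized counts in the 3 shlacZ libraries, 9387 and 10491 with sh4, and 7149 and 8561 with sh8. The 4 knockdown libraries were all above the 3 control libraries, and both sh4 libraries were above both sh8 libraries. The mean rose 1.77-fold with sh4, a log2 fold change of 0.83 (SE 0.14, adjusted p = 0.00265), and this call held in all 18 alternative fits (adjusted p at most 0.0379). With sh8 the ratio of means was 1.40 and the log2 fold change 0.49 (95% interval 0.18 to 0.79), which did not pass the test (adjusted p = 0.093). With both hairpins together WWTR1 was higher (log2 fold change 0.66, SE 0.15, adjusted p = 0.0399), but this call was lost in 6 of the 7 fits that left out a library (adjusted p 0.0182 to 0.149) and held only without the first sh8 library. Without the first shlacZ library it was 0.56 (adjusted p = 0.0748). The call was also lost without the variance trend (0.101) and with the replicate number as a block (0.132). WWTR1-AS1 lies on the opposite strand of the gene. The library kit keeps the strand, but whether the quantification used it is not given in the sources used here. The same limit holds for other genes described here that overlap a gene on the opposite strand. Among them are GRASLND (RNF144A), VGLL4 (ATG7), RBMS3 (RBMS3-AS1), LATS2 (LATS2-AS1) and WWC2 (WWC2-AS1).

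YAP1 (ENSG00000137693, hg38 chromosome 11, 102110447 to 102233424, plus strand), the gene for YAP itself, had 3028, 3632 and 3553 normalized counts with shlacZ, 4309.6 and 4954 with sh4, and 3825 and 3525 with sh8. Both sh4 libraries were above all controls, whereas 1 of the 2 sh8 libraries lay within the control range. YAP1 rose 1.36-fold with sh4 (log2 fold change 0.45, SE 0.13, adjusted p = 0.0302). The sh4 call was lost without the third shlacZ library, without the first sh4 library and without the second one (adjusted p up to 0.198), and held without the first shlacZ library at a log2 fold change of 0.36 (adjusted p = 0.0355), and was lost without the variance trend (0.0883). With sh8 the log2 fold change was 0.11 (95% interval -0.17 to 0.39, adjusted p = 0.674), and with both hairpins it was 0.28 (adjusted p = 0.253).

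**Figure D2:**
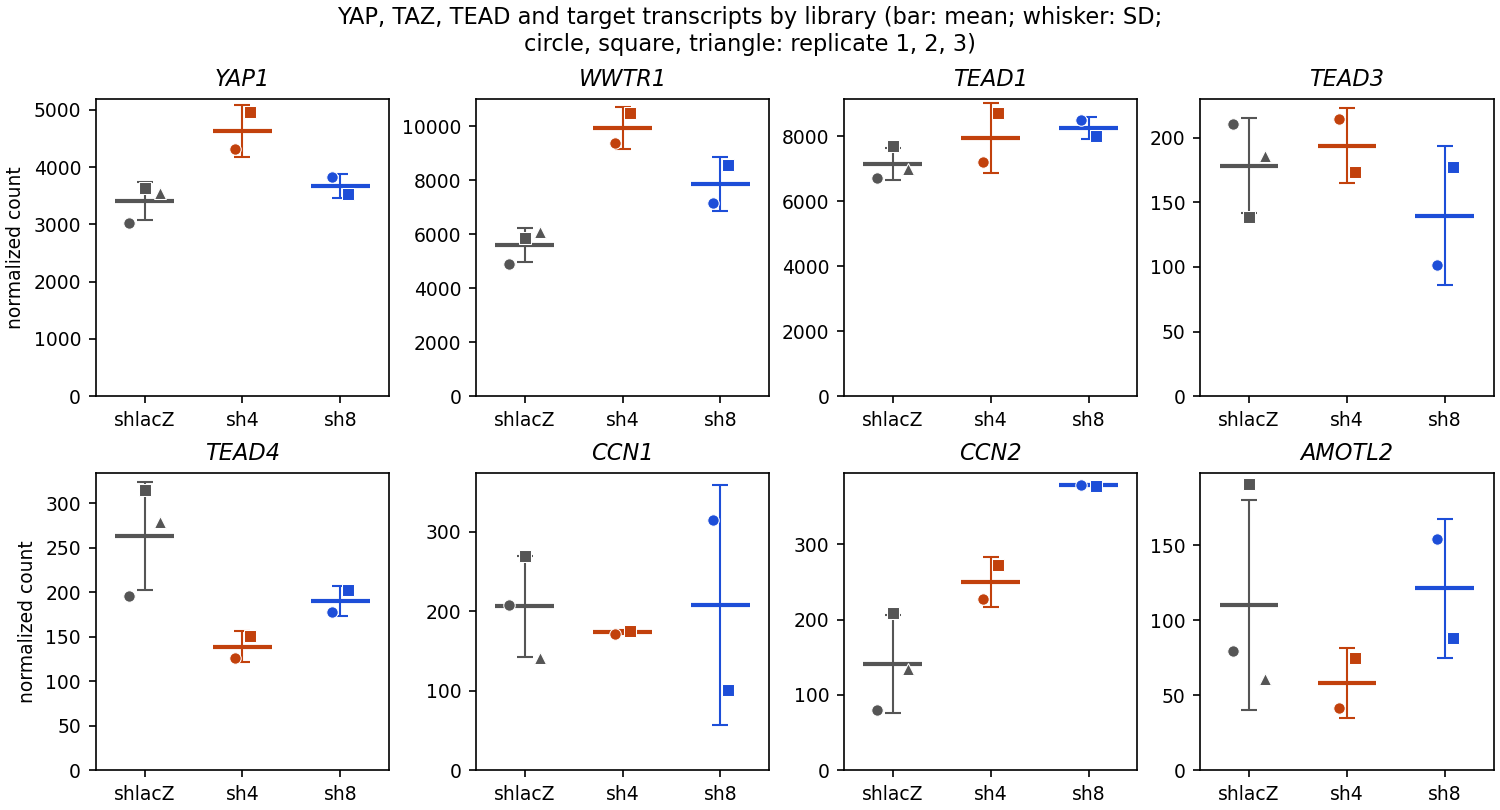
Normalized counts (y axis, from 0) of the 8 members in each library, by group on the x axis, with the group mean as a bar and the SD as a whisker. The WWTR1 and CCN2 points of the 4 knockdown libraries lie above all 3 shlacZ points, and the CCN1 and AMOTL2 points of the groups overlap.

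Levels of different genes were compared per kilobase of the canonical transcript. In shlacZ cells WWTR1 was highest, at 1113 ± 125 normalized counts per kb (SD, n = 3), above TEAD1 (759 ± 52.6) and YAP1 (630.3 ± 60.8), and the ranges of these did not overlap. TEAD4 followed at 154 ± 35.5, then CCN1 (90.5 ± 28.0), CCN2 (60.4 ± 27.7), TEAD3 (59.7 ± 12.3) and AMOTL2 (22.7 ± 14.4). Neighbours from TEAD4 down to TEAD3 overlapped in their ranges over the 3 libraries, and AMOTL2 lay below TEAD3 without overlap. On this scale the coactivators and TEAD1 stood high among the 15408 genes with a length, with 94.3% of genes below WWTR1, 90.7% below TEAD1 and 88.4% below YAP1. The targets were in the middle or low part, with 45.0% of genes below CCN1, 36.8% below CCN2 and 20.2% below AMOTL2. The order depended on the length used. With the union of exons, WWTR1 (671 ± 75.4) and TEAD1 (668 ± 46.3) were about equal and their ranges overlapped. CCN1 (55.7 ± 17.2) was then below CCN2 (60.4 ± 27.7) and TEAD3 (58.5 ± 12.1).

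WWTR1 and YAP1 summed to 1743 ± 184 normalized counts per kb with shlacZ, 2831 ± 239 with sh4 and 2240.0 ± 159 with sh8 (SD, n = 3, 2 and 2). The 7 libraries did not overlap between groups in this sum. The ratio of WWTR1 to YAP1 per kb was 1.73, 1.73 and 1.84 in the shlacZ libraries, 2.34 and 2.27 with sh4, and 2.00 and 2.60 with sh8. The control ratios were thus all below those of the knockdown libraries. The size of the ratio depends on the length used, and with the union of exons its means were 1.24, 1.62 and 1.62 for shlacZ, sh4 and sh8. These sums and ratios were not tested, and of all single genes 21.2% had no overlap between knockdown and control.

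**Figure D3:**
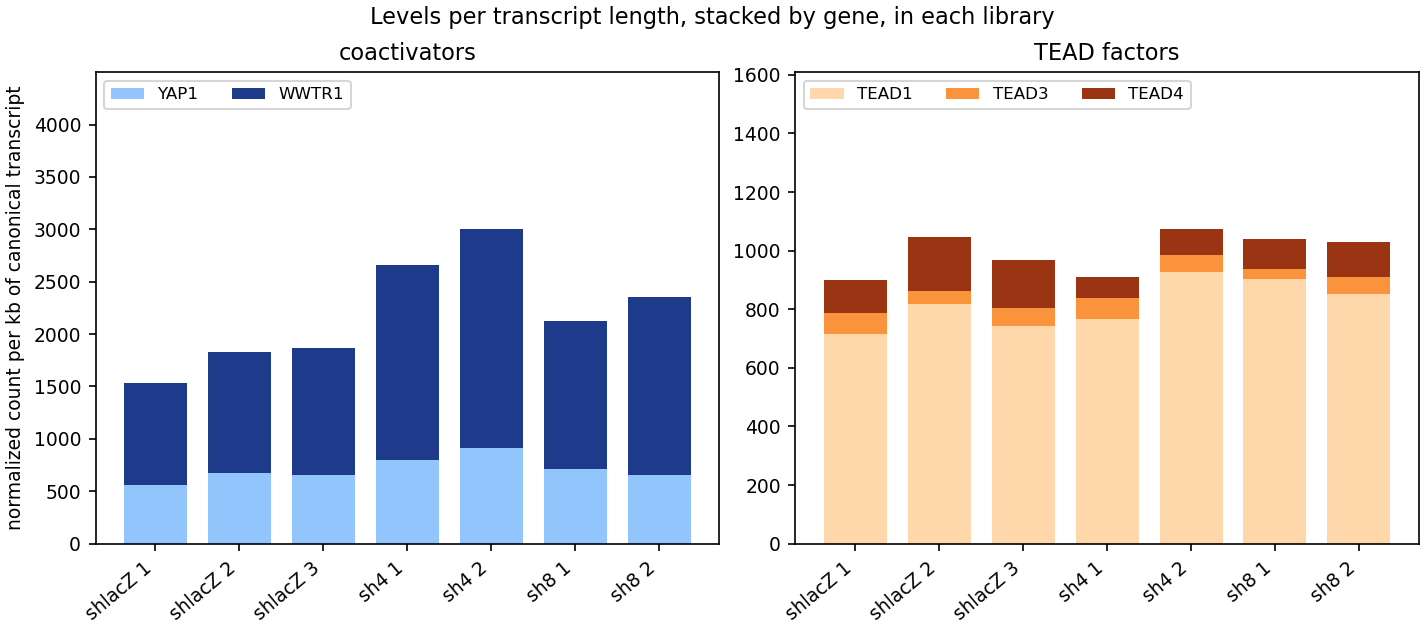
Normalized counts per kb of canonical transcript (y axis, from 0) in each library (x axis), stacked for YAP1 and WWTR1 on the left and for TEAD1, TEAD3 and TEAD4 on the right. The coactivator stacks average 1743 with shlacZ and 2831 with sh4, and TEAD1 makes up most of every TEAD stack.

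Among the 3 TEAD factors measured, TEAD1 was by far the main transcript, and TEAD4 was called with sh4. TEAD2 was not analysed here, so its level beside TEAD1 is not known. TEAD4 (ENSG00000197905, hg38 chromosome 12, 2959330 to 3040676, plus strand) had 196, 314 and 279 normalized counts with shlacZ, 126 and 151 with sh4, and 178 and 202 with sh8. Both sh4 libraries and 1 sh8 library were below all controls, and the other sh8 library lay just above the lowest control. TEAD4 fell with sh4 (log2 fold change -0.90, SE 0.22, adjusted p = 0.0184), and the fold change was -0.44 with sh8 (adjusted p = 0.331) and -0.67 with both hairpins (adjusted p = 0.106). The sh4 call was lost when the second or the third shlacZ library, or either sh4 library, was left out (adjusted p up to 0.144). It held without the first shlacZ library, at -1.095 (adjusted p = 0.00182).

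TEAD1 (ENSG00000187079, hg38 chromosome 11, 12674421 to 12944737, plus strand) had 6736, 7694 and 6999 normalized counts with shlacZ, 7204 and 8725 with sh4, and 8498 and 8017 with sh8. The sh4 libraries overlapped the control range, and both sh8 libraries lay above it. It was called with sh4 under quantile normalization alone among the settings tried, and its reported fold changes did not pass the test, at 0.15 with sh4 (95% interval -0.12 to 0.43, adjusted p = 0.415), 0.21 with sh8 (-0.07 to 0.49, adjusted p = 0.406) and 0.18 with both hairpins (adjusted p = 0.370). TEAD3 (ENSG00000007866, hg38 chromosome 6, 35473597 to 35497079, minus strand) had 211, 138 and 186 normalized counts with shlacZ, 215 and 173 with sh4, and 101 and 177 with sh8. Its groups overlapped, with the lowest value in 1 sh8 library, and its log2 fold change with both hairpins was -0.13 (95% interval -0.71 to 0.46, adjusted p = 0.804).

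The make-up of the TEAD transcripts was set out from the same values, with no test. TEAD4 made up 12.7%, 17.6% and 16.9% of the TEAD1, TEAD3 and TEAD4 counts per kb in the shlacZ libraries, 8.12% and 8.22% with sh4, and 10% and 11.5% with sh8. All 4 knockdown libraries were below all 3 controls. TEAD1 made up 78.1% ± 1.36 with shlacZ, 85.2% ± 1.69 with sh4 and 84.7% ± 2.82 with sh8 (SD, n = 3, 2 and 2), without overlap between knockdown and control. Both are shares of the same total, so the TEAD1 share is not a result separate from the TEAD4 share. Of all single genes, 21.2% had no overlap between knockdown and control. The 3 TEAD genes summed to 972 ± 73.4, 992 ± 114 and 1035 ± 8.16 normalized counts per kb, which overlapped between shlacZ and both hairpins.

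The targets did not move as a group. CCN2 (ENSG00000118523, hg38 chromosome 6, 131948176 to 131951372, minus strand) encodes a secreted matricellular protein also called CTGF. It had 80.5, 209 and 134 normalized counts with shlacZ, 227 and 273 with sh4, and 379.6 and 378 with sh8. All 4 knockdown libraries were above all controls, the sh8 libraries were the highest, and the first shlacZ library was the lowest. CCN2 rose 2.68-fold with sh8 (log2 fold change 1.52, SE 0.33, adjusted p = 0.0380). With sh4 it was 1.77 times the control mean (log2 fold change 0.92, 95% interval 0.19 to 1.64, adjusted p = 0.069), and with both hairpins 2.22 times (1.22, SE 0.31, adjusted p = 0.0544). The sh8 call held without the first shlacZ library at a smaller fold change of 1.17 (adjusted p = 0.0117), and was lost without the third shlacZ library or without any 1 of the 4 knockdown libraries (adjusted p up to 0.226). It was also lost without the variance trend (0.140) and with shlacZ and sh8 fitted alone (0.0776). LINC01013 lies on the strand opposite CCN2.

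CCN1 (ENSG00000142871, hg38 chromosome 1, 85580761 to 85584589, plus strand) encodes the related secreted protein CYR61. It had 207, 269 and 142 normalized counts with shlacZ, 172 and 175 with sh4, and 315 and 101 with sh8. The sh8 libraries were the highest and the lowest of the 7, so the groups overlapped fully. Its log2 fold change was -0.20 with sh4 (adjusted p = 0.777), -0.16 with sh8 (adjusted p = 0.877) and -0.18 with both hairpins (95% interval -0.96 to 0.60, adjusted p = 0.788). The ratio of CCN2 to CCN1 counts was 0.388, 0.778 and 0.945 with shlacZ, 1.32 and 1.56 with sh4, and 1.21 and 3.74 with sh8. The knockdown ratios were all above the control ratios, where 21.2% of all single genes had no overlap, and this ratio was not tested.

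AMOTL2 (ENSG00000114019, hg38 chromosome 3, 134355347 to 134375479, minus strand), a target that also binds YAP and holds it back, had 79.5, 191 and 60.9 normalized counts with shlacZ, 41.8 and 74.6 with sh4, and 154 and 88.3 with sh8. The second shlacZ library was the highest of all, and the groups overlapped. Its log2 fold change was -0.79 with sh4 (95% interval -1.84 to 0.25, adjusted p = 0.257), 0.26 with sh8 (-0.79 to 1.30, adjusted p = 0.818) and -0.27 with both hairpins (adjusted p = 0.759). Few reads stood behind this gene, 37 in the library with the fewest, where the counting error alone was 16.4%. For WWTR1 the counting error was 0.8% to 1.5%, for CCN2 4.9% to 11.3%.

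The genes with the pattern most like CCN2 over the 7 libraries, by the root mean square difference of centred log2 values among 11372 genes, were RGS1 (0.254), MICAL2 (0.256) and SORBS2 (0.268). RGS1 limits G protein signalling, MICAL2 acts on actin and SORBS2 is an adaptor of the cytoskeleton. These were the nearest of 11372 genes over only 7 libraries, and how close a nearest gene usually lies was not tested. A shared function with CCN2 was not tested either. For CCN1 they were EID3 (0.213), TIMM23B (0.229) and ZNF79 (0.230). The root mean square of the members themselves around their means was 0.745 for CCN2 and 0.509 for CCN1.

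Between the hairpins, sh4 and sh8 were set directly against each other to ask whether the members responded differently. By limma, 0 of 8 members were called, where 7% of all genes were, and limma-voom on the recovered reads also called 0. At an unadjusted p under 0.05, 2 members differed, YAP1 (log2 fold change of sh4 against sh8 0.33, 95% interval 0.02 to 0.64, adjusted p = 0.188) and WWTR1 (0.34, 0.01 to 0.68, adjusted p = 0.211). The difference was -0.45 for TEAD4 (adjusted p = 0.318), -0.60 for CCN2 (-1.40 to 0.19, adjusted p = 0.363) and -1.05 for AMOTL2 (-2.19 to 0.10, adjusted p = 0.266). The intervals were wide, and a missed threshold does not show that the hairpins acted alike.

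Of the 12 genes of the kinase cascade (the MST, LATS, MOB, SAV1, NF2, MAP4K4 and TAO kinase genes), 0 passed the test with both hairpins together, where 0 also had an unadjusted p under 0.05 and limma-voom called 0, beside 4.61% of all genes. With sh4, 0 were called, with 2 at an unadjusted p under 0.05 and 1 by limma-voom, beside 22.5% of all genes. With sh8, where 2.92% of all genes were called, 1 was called, LATS2, which encodes a kinase that phosphorylates YAP and TAZ and is itself a YAP target. LATS2 had 708 to 837 normalized counts with shlacZ, 745 and 737 with sh4, and 1214 and 1081 with sh8, so that only the sh8 libraries lay above the controls. It rose with sh8 (log2 fold change 0.57, adjusted p = 0.0462), a call lost when any library but the first of shlacZ was left out (adjusted p up to 0.27). It differed between hairpins (sh4 against sh8 -0.63, adjusted p = 0.0271), a call lost without the third shlacZ library or any knockdown library (up to 0.198).

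Of 18 upstream and binding regulators tested, 7 were higher and 2 lower with sh4, where 22.5% of all genes were called. With sh8, 2 were higher (2.92% of all genes called), and with both hairpins together 2 were higher (4.61%). FAT4, a giant cadherin related to the fly Fat protein upstream of Hippo, had 201.3 to 234 normalized counts with shlacZ, 523 and 787 with sh4, and 805 and 899 with sh8. All knockdown libraries were above the highest control, and FAT4 rose with sh4 (log2 fold change 1.55, adjusted p = 0.000549), with sh8 (1.95, adjusted p = 0.00102) and with both hairpins (1.75, adjusted p = 0.00306), in every alternative fit. The other gene called with both hairpins, and with each alone, was PTPN14, a phosphatase that binds YAP, which was named after its values were seen. Its log2 fold change was 0.52 with both hairpins (adjusted p = 0.0299), 0.52 with sh4 (0.00999) and 0.51 with sh8 (0.0468). The first of these calls was lost without any library but the first of sh8 (up to 0.15), the second without the second sh4 library (0.0896), and the third without any library but the first of shlacZ (up to 0.314).

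WWC2, a relative of KIBRA that promotes LATS activity, had 1018 to 1064 normalized counts with shlacZ, 431 and 434 with sh4, and 819 and 763 with sh8. It fell with sh4 in every alternative fit (log2 fold change -1.27, adjusted p = 0.000159), and was lower with sh4 than with sh8 (-0.87, adjusted p = 0.00544), a difference lost without the second sh4 library or the first sh8 library (up to 0.0588). AMOTL1, an angiomotin that binds YAP at cell junctions, rose with sh4 (log2 fold change 0.73, adjusted p = 0.0106), from 3963 to 5491 normalized counts with shlacZ to 7118 and 8873. FRMD6, a FERM domain protein of the upstream branch, also rose with sh4 (log2 fold change 0.69, adjusted p = 0.0347), from 1181 to 1788 normalized counts to 2112 and 2979. The AMOTL1 call was lost without the second sh4 library (0.109), and the FRMD6 call without the second sh4 library or either sh8 library (up to 0.265). WTIP, a LIM protein that binds LATS kinases, was very low, with 18.3 to 25.1 normalized counts with shlacZ and 2.26 and 11.9 with sh4. Its fall with sh4 (log2 fold change -1.82, adjusted p = 0.0498) rested on 18 reads (2 and 16 in the sh4 libraries) against 67. The ratio was 0.371 (exact 95% counting interval 0.207 to 0.632). That interval pools the reads of each group and leaves out the spread between libraries. The call was lost without any library but the second of sh4, and in 7 of 10 other settings. The fold change ran from -2.81 without the second sh4 library to -0.82 without the first.

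Of the VGLL cofactors, which bind TEAD in place of YAP and TAZ, VGLL4 (1 of 4 listed) was analysed here, and it separated the hairpins. VGLL4, a repressor of TEAD activity, had 1067, 1163 and 1126 normalized counts with shlacZ, 2061 and 2212 with sh4, and 1007 and 1026 with sh8. The sh4 libraries were well above all others, and the sh8 libraries were just below the controls. VGLL4 rose with sh4 (log2 fold change 0.93, adjusted p = 0.000555), was -0.14 with sh8 (adjusted p = 0.558), and was higher with sh4 than with sh8 (1.07, adjusted p = 0.00183). Its calls with sh4 and between the hairpins held in every alternative fit.

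Of 13 other reported targets of YAP and TAZ that were tested, 3 were higher and 0 lower with both hairpins together (4.61% of all genes called), 3 higher and 2 lower with sh4 (22.5%), and 3 higher and 0 lower with sh8 (2.92%). LATS2 and PTPN14 are counted in this list as well as above. The median log2 fold change was 0.259 for both hairpins, 0.151 for sh4 and 0.397 for sh8, beside the values near 0 of all genes given above. RBMS3, an RNA-binding protein, had 271 to 317 normalized counts with shlacZ, 1185 and 1039.7 with sh4, and 729 and 751 with sh8. The groups did not overlap, and RBMS3 rose with both hairpins (log2 fold change 1.60, adjusted p = 0.00391), with sh4 (1.89, adjusted p = 8e-05) and with sh8 (1.30, adjusted p = 0.00168). These calls held without each library in turn. The call with both hairpins was lost with the replicate number as a block (1.52, adjusted p = 0.059). The difference between hairpins (0.58, adjusted p = 0.0486) was lost without any library but the first of shlacZ.

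DOCK5, an activator of the GTPase Rac, rose with both hairpins (log2 fold change 0.60, adjusted p = 0.0282) and with sh4 (0.64, adjusted p = 0.00844). Its knockdown libraries (757 to 912 normalized counts) were all above the controls (527 to 590.3), where 21.2% of all genes had no overlap. As for FAT4, RBMS3 and LATS2, this separation adds no support, because the genes were named for calls on these same libraries. The first DOCK5 call was lost without shlacZ library 2 or 3 or either sh4 library (up to 0.13), the second without either sh4 library (0.0644 at most). ASAP1, an activating protein for Arf GTPases, fell with sh4 in every alternative fit (-0.72, adjusted p = 0.00172), from 3775 to 4079 normalized counts with shlacZ to 2442 and 2323. It was lower with sh4 than with sh8 (-0.67, adjusted p = 0.0101), a difference lost without the second sh4 library or the first sh8 library (up to 0.101). GADD45A, a stress-induced protein, had 209 and 284 normalized counts with sh4 and 113 and 116 with sh8, and was called between the hairpins (1.08, adjusted p = 0.0268) though not without any 1 knockdown library (up to 0.227). TGFB2, a ligand of the TGF-beta family, had 22, 15 and 13 reads with shlacZ and 3 and 2 with sh4. The ratio was 0.138 (exact 95% counting interval 0.043 to 0.344), and this interval also leaves out the spread between libraries. By limma TGFB2 fell with sh4 (log2 fold change -2.36, 95% interval -3.55 to -1.17, adjusted p = 0.0117). The fold change ran from -2.77 to -1.95 when a library was left out, and the call was lost without the second sh4 library.

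CCN3, the 1 gene of 4 others listed from the CCN family that was analysed here, had 128, 349.8 and 208 normalized counts with shlacZ, 543 and 812 with sh4, and 434 and 331 with sh8. It is a matricellular relative of CCN1 and CCN2. The sh4 libraries were above all others, and 1 sh8 library lay within the control range. CCN3 rose with sh4 (log2 fold change 1.65, adjusted p = 0.00932), which was lost without the second sh4 library (0.102), and was 0.85 with sh8 (adjusted p = 0.242).

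**Figure D4:**
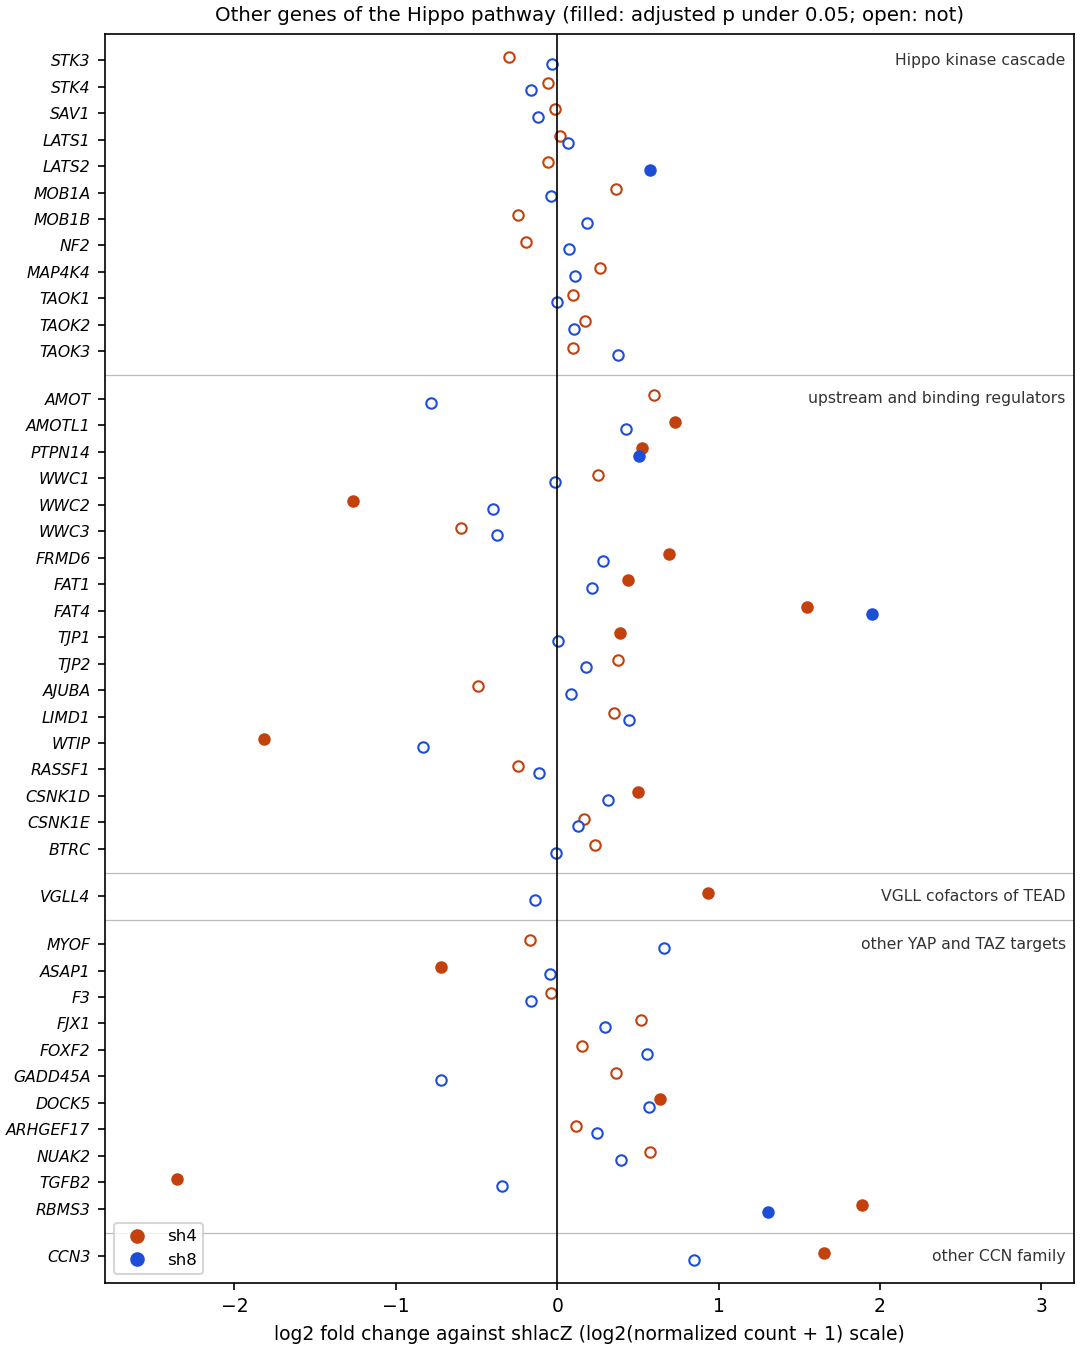
Log2 fold change against shlacZ (x axis, log2(normalized count + 1) scale) of each other tested gene of the pathway (y axis, grouped by list, each gene once) with sh4 and with sh8, filled where adjusted p was under 0.05. FAT4, RBMS3 and PTPN14 are filled for both hairpins, and VGLL4 at 0.93 and WWC2 at -1.27 for sh4 only. Among the genes of the kinase cascade, LATS2 with sh8 is the only filled point.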

How the data were processed

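Total RNA from 7 samples labelled 501Mel was depleted of ribosomal RNA and made into stranded libraries. Per the labels and the methods of the study, adapters were removed with cutadapt, read pairs mapped to hg38 with STAR and genes quantified with Salmon, with versions not given in the sources used here. The authors deposited normalized counts, that is, counts over a size factor for each library; 100% of values lay within 0.1 of a whole multiple of 1 read, and these reads gave depth. This scaling would hide a change common to most genes. Of 21305 gene identifiers, 21281 (99.9%) were in GENCODE release 44 (hg38), used for positions and lengths. The table held 0 columns of other samples.

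limma (3.58.1, R 4.3.3) was fitted to log2(normalized count + 1) with a variance trend, for 15420 genes whose mean reached 10, with Benjamini-Hochberg adjustment over all of them and calls at 0.05. Both hairpins were compared with shlacZ in a fit of 2 levels, after the study, and each hairpin in a fit of 3 groups. The script was tested on simulated data. The members and lists were chosen with earlier results of these data known. Of each list, the called genes with the largest fold changes were named, at most 5. Alternatives covered pseudocount, filter, scaling, variance trend, replicate block, fitted samples and omission of each library. limma-voom and the follow-up of single genes outside the members were added after seeing the data.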

Additional observations from a re-analysis of the deposited data

Results flagged for a closer look

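A direct test of sh4 against sh8 separated the hairpins for 6 of the 43 genes tested in the pathway lists, where 7% of all genes were called. VGLL4 (log2 fold change 1.07), GADD45A (1.08) and RBMS3 (0.58) were higher with sh4, and WWC2 (-0.87), ASAP1 (-0.67) and LATS2 (-0.63) were lower with sh4, all by limma at an adjusted p under 0.05 (the largest 0.0486). The sh4 and sh8 libraries of these genes did not overlap, which adds no support, because the genes were picked by a test on these same libraries. All but VGLL4 lost the call in at least 2 fits that left out a library, as given above.

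WTIP stood out within the 4 knockdown libraries, because the first sh4 library (2.26 normalized counts) was far from the other values of 11.8 to 11.9, with a gap of 0.989 of the whole range. It was the only one of 22 genes so marked, and chance marks about 1 in 20 groups.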

How the results depend on the processing

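The number of members called with both hairpins together, 1 as reported, was 0 without the variance trend, 0 with the replicate block, 2 with equal library totals (WWTR1 and CCN2), 3 with the mean of both hairpins in the fit of 3 groups (with TEAD4), and 0 to 1 when a library was left out. With sh4 it was 3, and 2 without the variance trend (YAP1 lost), 4 with quantile normalization (with TEAD1), 4 with the replicate block, limma-voom or equal library totals (with CCN2), and 1 to 3 when a library was left out. With sh8 it was 1, and 0 without the variance trend, 2 with quantile normalization, 2 with the replicate block, 2 with equal library totals (WWTR1 each time beside CCN2), 0 with the 2 groups alone and 0 to 1 when a library was left out. Between hairpins it was 0, and 2 with quantile normalization (WWTR1 and YAP1). With both hairpins together the sign of 3 members turned when a library was left out, with ranges of -0.30 to 0.09 for TEAD3, -0.46 to 0.09 for CCN1 and -0.60 to 0.21 for AMOTL2. The reversals came without shlacZ 1 or sh8 1 for TEAD3 (0.004 and 0.094), shlacZ 2 or sh8 2 for CCN1 (0.037 and 0.086) and shlacZ 2 or sh4 1 for AMOTL2 (0.214 and 0.045). The cause was not tested. In the 11 other settings no member changed sign with both hairpins together.

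Over all genes, calls with both hairpins numbered 711, but 138 without the trend, 42 with the replicate block, 2534 in the fit of 3 groups and 64 to 1144 when a library was left out. With sh4 they numbered 3464 (1413 to 4865 when a library was left out), with sh8 451 (59 without the trend, 299 with the 2 groups alone, 53 to 1600), and between hairpins 1079 (476 without the trend, 144 to 1975). Equal library totals moved the share of calls that were higher from 46.9% to 59.3% for sh4 and from 52.5% to 67% between hairpins, and no scaling moved the median of all genes by more than 0.097.

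The labels do not say whether the replicate numbers pair the libraries. Deviations from the group mean in same-numbered libraries were correlated at 0.337, 0.117, 0.213, -0.078, 0.034 and 0.034. In a group of 2 libraries the deviations mirror each other, so these values cannot decide whether the numbers pair the libraries. With the replicate block, the calls of WWTR1 (adjusted p = 0.132), GRASLND, RBMS3 (0.059), DOCK5 and PTPN14 with both hairpins and of LATS2 with sh8 were lost. Without the variance trend, the calls of GRASLND, DOCK5 and PTPN14 with both hairpins, AMOTL1, FRMD6 and WTIP with sh4, LATS2 and PTPN14 with sh8, and LATS2, RBMS3, GADD45A and ASAP1 between hairpins were lost. With a minimum mean of 1, PTPN14 (0.0562) and LATS2 (0.0558) with sh8, WTIP with sh4 (0.0517) and RBMS3 between hairpins (0.0606) were lost. With the 2 groups alone, FRMD6 with sh4 and LATS2 and PTPN14 with sh8 were lost. The planned edgeR and DESeq2 fits were not run, because the way the table writes decimals kept it from being declared as counts. Few reads stood behind AMOTL2, WTIP and TGFB2.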

Other observations

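MYOF, a listed YAP and TAZ target named after its values were seen, had 1.03 normalized counts in the first shlacZ library against 73.3 and 63.5 in the other shlacZ libraries. It had 9.03 and 35.1 with sh4 and 43.5 and 24.6 with sh8, and passed no test (adjusted p = 0.917 with both hairpins). The first shlacZ library was also the lowest control for YAP1, WWTR1, TEAD1, TEAD4 and CCN2.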
